A study of Mus musculus with 2 samples.

Results

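Cyclins and cyclin-dependent kinases (CDKs) were examined as 10 genes of the cell cycle engine, *Ccnd1*, *Ccnd2*, *Ccnd3*, *Cdk4*, *Cdk6*, *Ccne1*, *Ccne2*, *Ccna2*, *Ccnb1* and *Cdk1*, out of 21938 protein-coding genes of the mouse annotation. A Myb peak was assigned to a gene when its summit, the base of highest signal, lay in the gene body or within 30 kb of it, and 82 of the 25793 peaks in the deposited list met this rule. The study asked which genes are bound by the transcription factor Myb in WT blood progenitors. They were compared with genes whose expression changes after loss of the coactivator p300 in *Tet2*-null stem and progenitor cells. Binding and expression thus came from cells of different genotype. Myb was precipitated from chromatin of WT mouse bone marrow cells that lack lineage markers (Lin-), and the DNA was sequenced (ChIP-Seq). In the study's methods, WT names mice with floxed *Ep300* alleles and no Cre that were injected with poly(I:C). Whether this held for the mice of this library is not stated. An antibody against Myb (Abcam ab76009) was used for the WT_Myb library and rabbit IgG (Cell Signaling 2729S) for the WT_IgG library, with 1 library of each. Lin- cells are bone marrow cells depleted of those that carry surface markers of mature blood lineages, and purity was stated as above 80%, so other cells were present. The labels gave neither the number nor the age of the mice. A peak list holds no expression values, so the cell type could not be checked against its markers. There was no replicate, no p-value was computed between groups of genes or peaks, and the intervals below cover counting error only.

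Progression through the cell cycle is driven by kinases that are active only when bound to a cyclin. D-type cyclins with Cdk4 or Cdk6 act in G1 and phosphorylate the retinoblastoma protein, which releases E2F transcription factors. E-type cyclins act at the entry into S phase, cyclin A2 in S and G2, and cyclin B1 with Cdk1 at the entry into mitosis. Myb is required for the maintenance of hematopoietic progenitors and binds a short DNA word with the core AAC. *Ccnd1*, *Ccnd2*, *Ccnd3*, *Cdk4* and *Cdk6* formed the G1 members, and the other 5 genes the S and G2/M members.

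Of the 10 genes, 9 had at least 1 Myb peak by the rule, where 62.8% of all protein-coding genes had one. A promoter peak, with the summit within 3 kb of a start site of the gene itself, was also found at 9 of the 10, where 39.9% of all protein-coding genes had one. *Ccnd1* was the gene without either. With the promoter window cut to 1 kb, 8 of the 10 had a promoter peak. The 39.9% holds for 3 kb only, and no such share was computed for 1 kb. The genes have from 3 (*Ccnd1*) to 19 (*Ccnd3*) annotated starts, and the number of starts was not adjusted for. The number of peaks ran from 1 at *Cdk1* and 2 at *Ccna2* to 18 at *Ccnd3* and 34 at *Cdk6*, with a median of 4.5 over the 10 genes, whereas the median over all protein-coding genes was 1. Since longer genes offer more room for peaks, the density was also taken, and the median was 5.75 peaks per 100 kb over the 10 genes and 1.38 over all protein-coding genes. *Cdk6* and *Ccnd3* together held 52 of the 82 peaks, and all 4 peaks above 10-fold enrichment were at these genes, where 4.47% of all peaks in the list were above it. Fold enrichment is the Myb signal at the summit divided by the local IgG background, each with 1 added.

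**Figure D1:**
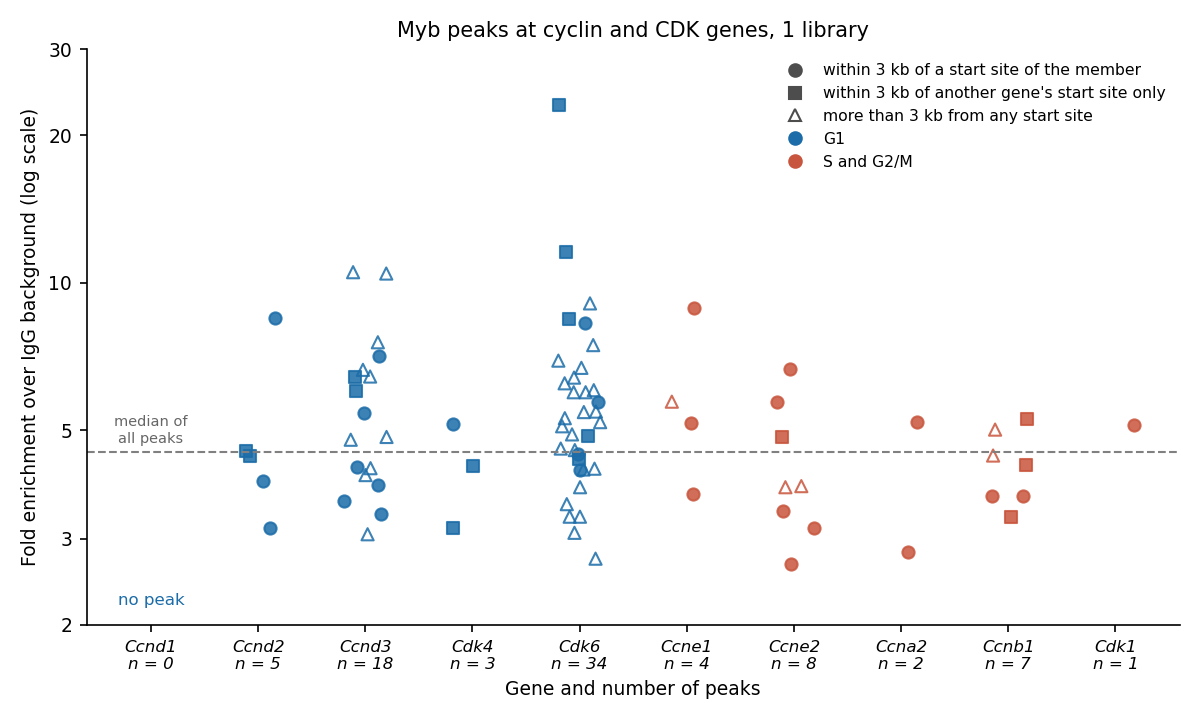
Fold enrichment over the IgG background (log scale) of each of the 82 peaks, by gene, in the 1 Myb library. Colors separate the G1 from the S and G2/M members, and symbols give the position relative to start sites. The points of *Cdk6* reach 23.1 and those of *Ccnd3* 10.5, while no point of the S and G2/M members lies above 8.88. Horizontal jitter carries no value.

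Sequences at the summits are shown first for the strongest peaks of *Cdk6* and *Ccnd3*, because each was the strongest of its gene and held a Myb motif. The second strongest of the 82, *Cdk6* peak 26 at 11.6-fold, held no motif within 50 bp of its summit and is not printed. The motif was CAACGG or CAACTG and, with another letter at its start, TAACGG or else TAACTG, on either strand, and its letters are in capitals. Each window of 101 bases is centered on the summit and written 5′ to 3′ on the strand of the gene (GRCm38). The window of *Cdk6* is chr5:3497689-3497789 and lies in intron 5 of *Cdk6*, and that of *Ccnd3* is chr17:47542128-47542228 in intron 1 of *Ccnd3*, both on the plus strand.
Cdk6 strongest peak: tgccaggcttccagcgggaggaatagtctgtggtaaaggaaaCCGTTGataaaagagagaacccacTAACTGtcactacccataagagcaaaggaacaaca
Ccnd3 strongest peak: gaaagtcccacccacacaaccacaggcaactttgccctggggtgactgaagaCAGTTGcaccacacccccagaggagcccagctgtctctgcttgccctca

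The *Cdk6* window held 2 motifs, of which one began 8 bp before the summit and the other 16 bp after it. The *Ccnd3* window held 1 motif, which began 2 bp after the summit. Words such as CCGTTG and CAGTTG are the same motif read from the other strand.

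D-type cyclins are the partners that couple growth signals to Cdk4 and Cdk6, and the members of this family differed in their peaks. *Ccnd1* (chr7:144929931-144939925, minus strand) had no peak in its gene body or within 30 kb, a window of 70.0 kb. The nearest summit was 89453 bp away and had a fold enrichment of 2.22. With the window widened to 100 kb, 3 peaks fell near *Ccnd1*.

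*Ccnd2* (chr6:127125162-127152193, minus strand) had 5 peaks, which ranged from 3.16- to 8.46-fold, with a median of 4.44. The strongest was at the promoter, at chr6:127151335-127152370, with the summit 163 bp inside the gene and a −log10 q-value of 13.9. It rested on 29 reads at the summit (exact Poisson 95% interval 19.4 to 41.6). The other promoter peaks of *Ccnd2* were weaker, at 3.94-fold 2454 bp upstream and at 3.16-fold in intron 1, where the antisense transcript 9330179D12Rik begins 377 bp from the summit. The remaining 2 peaks lay at start sites of other genes. One was 155 bp from the start of *Tigar* (4.44-fold) and the other 1880 bp from the pseudogene *Gm18995* (4.54-fold). *Ccnd2* thus had no peak more than 3 kb from every start site.

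*Ccnd3* (chr17:47505051-47599691, plus strand) had 18 peaks in a window of 154.6 kb, or 11.6 per 100 kb. As many peaks or more were found at 82 protein-coding genes (0.374%), and as high a density at 3.28%. Of the 18 peaks, 14 were in the gene body, and 10 were over 3 kb away from every start site. The strongest, whose summit window is printed above, was at chr17:47541924-47542398 with 10.5-fold enrichment, 39 reads (27.7 to 53.3) and a −log10 q-value of 21.7. Its neighbor at chr17:47535413-47536483, in the same intron, had 10.4-fold enrichment, 53 reads and a −log10 q-value of 26.9. By summit reads it was the deeper of the pair.

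*Ccnd3* has several annotated start sites, and the peaks at them were unequal. At the outermost start, which lies at the far 5′ end of the gene, the peaks were 3.36-fold (2183 bp upstream, and nearer to *Taf8*, at 576 bp) and 3.59-fold (2.89 kb downstream, and 2700 bp from another start nearby). At an internal start near the 3′ end of the gene, a peak of 7.07-fold lay 64 bp downstream, with 26 reads. A further 3 peaks within 3 kb of internal starts had 3.86-, 5.42- and 4.20-fold enrichment. Downstream of *Ccnd3*, a peak of 6.02-fold lay 46 bp from the start of *Bysl* and one of 6.41-fold 1306 bp from that of *Usp49*. These 2 peaks met the rule for *Ccnd3* but were promoter peaks of its neighbors.

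Cdk4 and Cdk6 are the kinases that the D-type cyclins activate, and they had 3 and 34 peaks, respectively. *Cdk4* (chr10:127063534-127067920, plus strand) had 3 peaks, and only the one at its promoter had *Cdk4* as the nearest protein-coding start. That peak, at chr10:127063032-127064016, had 5.16-fold enrichment and a −log10 q-value of 7.14, with 25 reads (16.2 to 36.9) and the summit 93 bp from a start site. The other 2 were at the start of *Agap2*, at 3.16- and 4.23-fold, and the weaker of these had a q-value above 0.05.

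*Cdk6* (chr5:3341485-3531008, plus strand) had 34 peaks, 30 of them in the gene body. Its window of 249.5 kb gave 13.6 peaks per 100 kb, and as many peaks were found at only 5 protein-coding genes (0.0228%), *Cdk6* included. As high a density was found at 1.98% of genes. Thus *Cdk6* stood further apart by number of peaks than by peaks per length. The 34 peaks ranged from 2.73- to 23.1-fold, with a median of 5.24, and from 10 to 93 reads.

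The strongest peak of *Cdk6*, at chr5:3497068-3499975, lay in intron 5, 156.3 kb downstream of the first start site. It had 23.1-fold enrichment, 93 reads (75.1 to 113.9) and a −log10 q-value of 74.7. A peak this strong or stronger was found at 0.191% of protein-coding genes. The nearest annotated start belongs to *Gm42435*, an antisense transcript inside *Cdk6*, and was 2333 bp from the summit. The peak therefore counted as a promoter peak when noncoding genes were included, and as a distal one when they were not. The next peak downstream, at chr5:3500223-3504116, was the second strongest of *Cdk6*, with 11.6-fold enrichment and 39 reads. Another strong peak, of 9.08-fold and 45 reads, lay in intron 3 at chr5:3404784-3405708.

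At the 5′ end of *Cdk6*, a broad peak at chr5:3341075-3345081 had 8.28-fold enrichment and 31 reads. Its summit was 1042 bp upstream of the nearest *Cdk6* start and held a Myb motif. The other 3 promoter peaks of *Cdk6* had 4.47-, 5.72- and 4.15-fold enrichment. A further 3 peaks lay at starts of other genes, namely 4.37- and 8.42-fold peaks near the antisense transcript *Gm17590* inside *Cdk6* and a 4.87-fold peak 30 bp from the start of *Fam133b* downstream. Peaks of *Cdk6* fell largely into 2 stretches in which neighboring peaks were no more than 12.5 kb apart, a limit chosen after the positions had been seen. The stretch at the 5′ end spanned 32.8 kb and held 13 peaks. The stretch in introns 5 and 6 spanned 36.6 kb, from 139.0 to 175.5 kb, and also held 13. Median fold enrichment was 5.29 in the 5′ stretch and 5.44 in the other. *Ccnd3* showed a like division, with 10 peaks over 39.7 kb at its 5′ end and 7 peaks over 36.3 kb at its 3′ end and beyond.

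**Figure D2:**
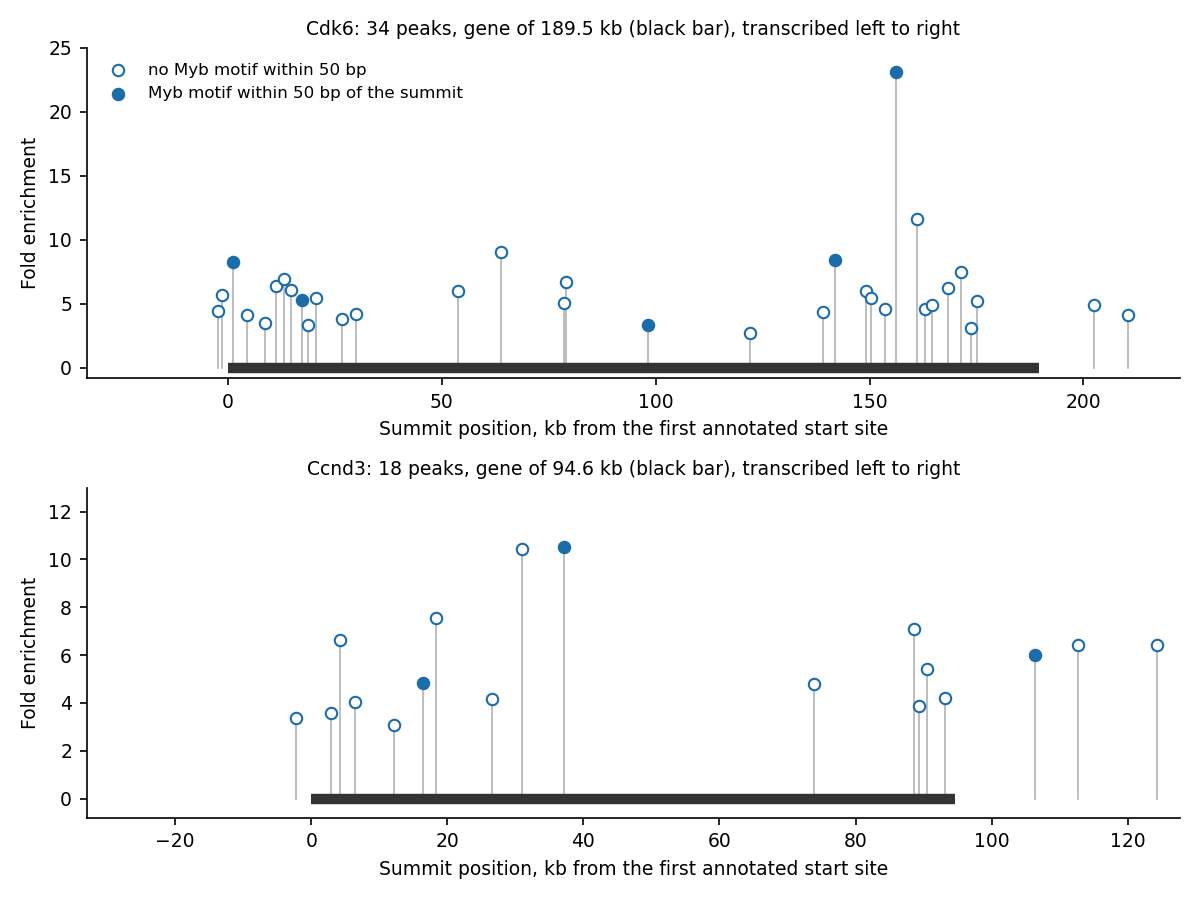
Fold enrichment of each peak of *Cdk6* (34 peaks) and *Ccnd3* (18 peaks) against the position of its summit in kb from the first annotated start site. The black bar is the gene, and filled points have a Myb motif within 50 bp of the summit. The highest *Cdk6* point, 23.1-fold, lies at 156.3 kb, and both *Ccnd3* points above 10-fold lie in the 5′ part of the gene.

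E-type cyclins bind Cdk2 and carry the cell into S phase. *Ccne1* (chr7:38097984-38107534, minus strand) had 4 peaks of 3.70- to 8.88-fold, and *Ccne1* was the nearest protein-coding start for each. The strongest, at chr7:38105151-38106162, had 35 reads (24.4 to 48.7) and lay in intron 4, 1391 bp from the nearest *Ccne1* start. It was also the strongest peak of the S and G2/M members. The other promoter peaks of *Ccne1* had 5.16-fold enrichment 613 bp upstream and 3.70-fold enrichment 438 bp downstream of an internal start, and the only distal peak had 5.72-fold enrichment.

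*Ccne2* (chr4:11191351-11204779, plus strand) had 8 peaks, or 10.9 per 100 kb, of which 5 lay within 3 kb of its own starts. The strongest, at chr4:11190933-11191599, had 6.65-fold enrichment and 20 reads (12.2 to 30.9), with the summit 172 bp upstream. The other 4 promoter peaks ranged from 2.66- to 5.72-fold, and 3 further peaks had *Ints8* as the nearest start. Peaks at *Ccne2* were more numerous but shallower than those at *Ccne1*, with median fold enrichments of 3.83 and 5.44, and 2 of them had a q-value above 0.05.

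Cyclin A2 and cyclin B1 with Cdk1 drive the later phases, and each gene had a peak close to one of its annotated starts. The *Ccna2* gene (chr3:36564865-36572150, minus strand) had 2 peaks. The one at chr3:36571385-36572446 had 5.21-fold enrichment and 19 reads (11.4 to 29.7), 125 bp upstream of the start, and the other, in intron 2, had 2.82-fold enrichment. *Cdk1* (chr10:69335146-69352938, minus strand) had a single peak, at chr10:69352554-69353355, of 5.12-fold enrichment. It rested on 32 reads (21.9 to 45.2), with the summit 69 bp upstream.

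*Ccnb1* (chr13:100778650-100786570, minus strand) had 7 peaks, but *Ccnb1* was the nearest protein-coding start for only 1 of them. This peak, at chr13:100786087-100787124, had 3.67-fold enrichment, 13 reads (6.92 to 22.2) and a −log10 q-value of 2.51. A second peak, also of 3.67-fold, lay within 3 kb of an internal *Ccnb1* start but nearer to *Cenph*, a kinetochore gene. The strongest, at chr13:100776950-100778084, had 5.28-fold enrichment and 33 reads, and its nearest start was that of *Cenph*, 1672 bp away. Another 2, of 4.25- and 3.32-fold, lay 600 and 706 bp from the *Cenph* start. The last pair of peaks, of 4.44- and 5.01-fold, was nearest to *Mrps36*. Most peaks that the rule assigned to *Ccnb1* therefore lay closer to neighboring genes.

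**Figure D3:**
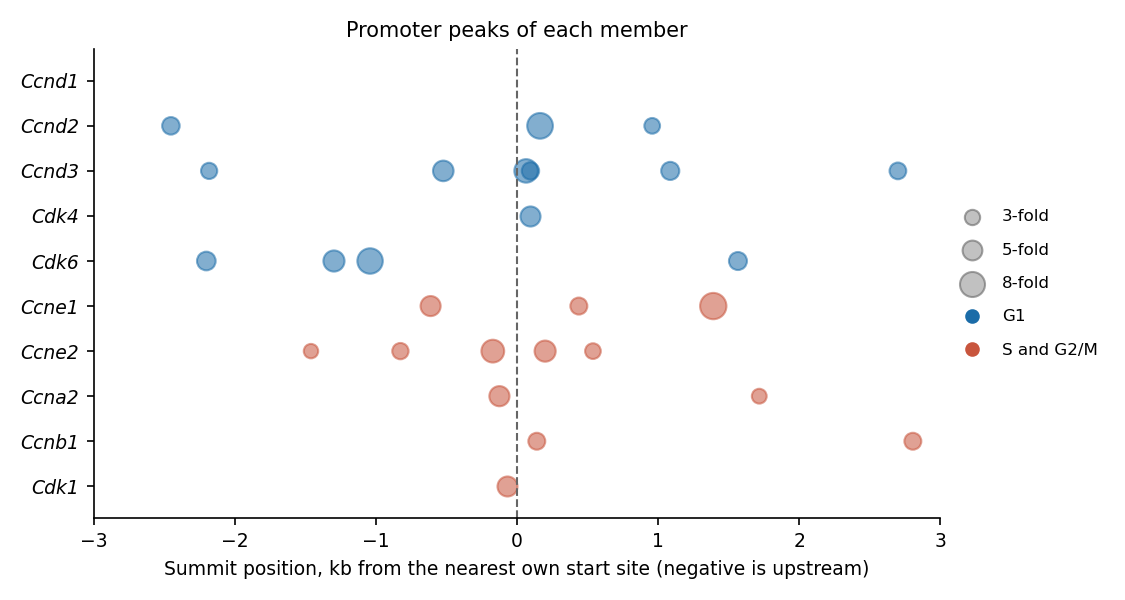
Position of each of the 27 promoter peaks, in kb from the nearest start site of its own gene, where negative values are upstream. Circle area is proportional to fold enrichment and color gives the group. *Ccnd1* has no circle, and *Cdk1* has a single one 69 bp upstream of its start.

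Of the S and G2/M genes, *Ccne1*, *Ccnb1* and *Cdk1* were matched in the RefSeq promoter table, and their promoters were read for words known from cell cycle promoters, namely CHR (TTTGAA or TTCGAA), the CCAAT box (CCAAT) and an E2F word (TTTCGCGC, TTTGGCGC, TTTCCCGC or TTCCCGCC), on either strand. CHR elements are known as sites bound by complexes that repress or activate mitotic genes, and E2F words as sites of the E2F family. The *Cdk1* promoter is shown because it covers the summit of the only Myb peak of *Cdk1*. It is the 250 bases upstream of the RefSeq start, at chr10:69352913-69353162 (GRCm38, minus strand). The last 26 of these bases lie inside the gene in GENCODE vM21, from whose start the summit was 69 bp upstream. Capitals mark the 3 kinds of words.
Cdk1 promoter: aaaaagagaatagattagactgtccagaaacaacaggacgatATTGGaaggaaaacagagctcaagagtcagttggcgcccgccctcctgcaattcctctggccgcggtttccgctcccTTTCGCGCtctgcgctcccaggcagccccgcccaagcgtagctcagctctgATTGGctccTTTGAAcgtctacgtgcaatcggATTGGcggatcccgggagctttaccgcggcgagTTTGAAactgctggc
It held 6 marked words, of which 1 was an E2F word, 2 were CHR and 3 were CCAAT boxes. The CHR nearer to the start lies in the last 26 bases. In the same 250 bases, the *Ccnb1* promoter held 2 CCAAT boxes and neither of the other words, and the *Ccne1* promoter held none of the 3. Among 32851 mouse promoters in the RefSeq table, in the same 250 bases, CHR was found in 17.1%, the CCAAT box in 33.8% and the E2F word in 2.92%. A Myb motif was also found in it, as in 23.7% of all promoters, but not within 50 bp of the summit.

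The summit windows of the promoter peaks of *Ccna2* (chr3:36572225-36572325) and *Ccnb1* (chr13:100786212-100786312) are given for comparison, on the minus strand of GRCm38. Neither held a CHR, a CCAAT box or the E2F word, nor a Myb motif, so all letters are in lower case. The *Ccnb1* summit lay in intron 1, 0.308 kb downstream of the first start, whereas the *Ccna2* and *Cdk1* summits lay upstream. The window of the same length at the *Cdk1* summit, which lies within the promoter printed above, held 3 of the marked words.
Ccna2 promoter peak: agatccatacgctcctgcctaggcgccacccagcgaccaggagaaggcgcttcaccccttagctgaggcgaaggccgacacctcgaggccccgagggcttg
Ccnb1 promoter peak: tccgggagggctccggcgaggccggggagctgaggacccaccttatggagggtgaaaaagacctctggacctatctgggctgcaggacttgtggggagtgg

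Both windows were rich in G and C, at 66.3% for *Ccna2* and 64.4% for *Ccnb1*, against a median of 48.5% over the summit windows of all peaks. In the *Cdk1* summit window the share was 61.4%.

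To compare the G1 with the S and G2/M members, peaks were pooled within each group. The G1 members had 60 peaks over 625.6 kb, or 9.59 per 100 kb, and the S and G2/M members 22 peaks over 356.0 kb, or 6.18 per 100 kb. The higher density of the G1 members rested on *Cdk6* and *Ccnd3*. It was 6.91 per 100 kb without *Cdk6* and 3.61 without both genes, which is below the S and G2/M members. Promoter peaks did not separate the groups, with 4 of 5 G1 members and 5 of 5 S and G2/M members having one.

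The fold enrichment of the groups was described without a test. The median was 4.997 over the 60 G1 peaks (95% interval of the median from order statistics 4.44 to 5.98) and 4.34 over the 22 S and G2/M peaks (3.67 to 5.21). The median over all 25793 peaks was 4.51. Peaks of at least 8-fold numbered 8 of 60 in the G1 members (13.3%, exact 95% interval 5.94 to 24.6) and 1 of 22 in the S and G2/M members (4.55%, 0.115 to 22.8), where 9.89% of all peaks reached this level. A −log10 q-value of 5 or more was found for 32 G1 peaks (53.3%, 39.997 to 66.3) and 8 S and G2/M peaks (36.4%, 17.2 to 59.3), where 43.1% of all peaks had one. Each of these intervals contained the share over all peaks. Without *Cdk6* and *Ccnd3*, the G1 members had 8 peaks, of which 1 and 2 passed these levels. Peaks of the same gene are not independent, and these medians describe 1 library. The intervals treat peaks as independent, so whether they overlap does not decide if the groups differ.

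The position of the peaks differed more than their strength. Of the G1 peaks, 35 of 60 (58.3%, exact Clopper-Pearson 95% interval 44.9 to 70.9) were distal, that is over 3 kb from every start site, against 5 of 22 (22.7%, 7.82 to 45.4) in the S and G2/M members, and 42.4% of all peaks in the list did. These intervals also treat peaks of the same gene as independent and do not decide whether the groups differ. All 35 distal G1 peaks belonged to *Cdk6* (25) or *Ccnd3* (10). Without *Cdk6*, 10 of 26 G1 peaks were distal (38.5%, 20.2 to 59.4), and without both genes 0 of 8 were. The group difference in distal peaks was thus that of 2 genes, which were also the longest of the 10, at 189.5 and 94.6 kb.

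**Figure D4:**
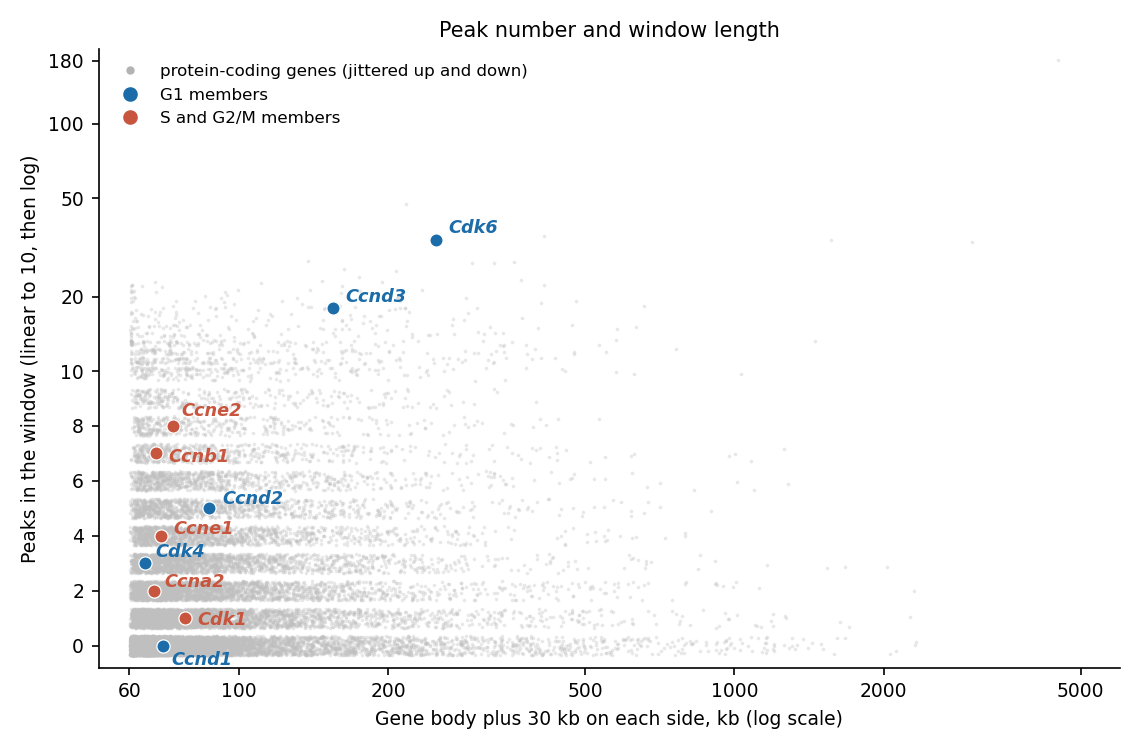
Number of peaks against the length of the gene body plus 30 kb on each side, in kb (log scale), for all 21938 protein-coding genes in gray and the 10 cell cycle genes in color. The vertical axis is linear up to 10 and logarithmic above. *Cdk6* (34 peaks in 249.5 kb) and *Ccnd3* (18 peaks in 154.6 kb) lie near the upper edge of genes of their length, and *Ccnd1* lies at 0.

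A Myb motif lay within 50 bp of the summit of 8 of the 82 peaks (9.76%, 4.31 to 18.3), and within 50 bp of 16.7% of all peaks in the list. The share at these genes was thus no higher than in the list as a whole. All 8 belonged to G1 members (8 of 60, 13.3%, 5.94 to 24.6), with 5 at *Cdk6* and 3 at *Ccnd3*. In the S and G2/M members it was 0 of 22, which allows a share of up to 13.6% by the limit of 3 counts of the total, or 15.4% by the upper bound of the exact interval. The share in the G1 members lies below both. Over the full width of the peaks, 51 of 82 (62.2%) held the word, and 58.6% of all peaks did.

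The motif windows of 5 other peaks are shown, in addition to the strongest peaks above, with the Myb word in capitals and 12 bases on each side. They are written on the plus strand of GRCm38. Those of *Ccnd3* peak 6 (chr17:47521479-47521508) and *Cdk6* peaks 9 (chr5:3358907-3358936), 18 (chr5:3439590-3439619) and 21 (chr5:3483489-3483518) are intronic, and that of *Cdk6* peak 3 (chr5:3342658-3342687) lies in the broad promoter peak. Peaks are numbered from 1 at the 5′ end of the gene.
Ccnd3 peak 6: tctcttcaagtcCCGTTAtaccaattaaac
Cdk6 peak 3: cgggcgccaaggCCGTTGctcccgctacct
Cdk6 peak 9: cagaagtgctgaCAGTTGggtggtatatgc
Cdk6 peak 18: acaagcccatggCAGTTGctcagtgaacgt
Cdk6 peak 21: ccaaaacaccacCAACTGaaaacaagcgaa

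These peaks ranged widely in strength, from 3.33-fold at *Cdk6* peak 18 to 8.42-fold at *Cdk6* peak 21, with *Ccnd3* peak 6 at 4.84-fold and *Cdk6* peak 9 at 5.29-fold. A motif near the summit was therefore found at peaks of unlike strength, but not evenly. Among the 8 peaks with a motif, *Cdk6* peaks 3, 21 and 25 and *Ccnd3* peak 10 had 8.28-, 8.42-, 23.1- and 10.5-fold enrichment. Only 9 of all 82 peaks reached 8-fold. Whether motifs are more common at strong peaks was not tested. The eighth peak with a motif was that at the *Bysl* start.

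Words of other factors were counted in the same windows. The CCAAT box was found at 15 of 82 summits (18.3%, 10.6 to 28.4) and at 11.1% of all peaks, and RUNX words (TGTGGT or TGCGGT) at 4 (4.88%, 1.34 to 12.0) and at 12.2% of all peaks. CHR was found at 8 (9.76%) and in 8.69% of all peaks, ETS words (CCGGAA or AGGAAG) at 13 (15.9%) and 19.8%, and GATA words (AGATAA or TGATAA) at 12 (14.6%) and 13.8%. The E2F word occurred at 1 summit, that of *Cdk1*. RUNX, ETS and GATA factors are known regulators of blood cells. For the CCAAT box, CHR, ETS, GATA and E2F the interval at the cyclin and CDK genes contained the share over all peaks. For RUNX it lay just below that share, and 6 kinds of words were compared, with no adjustment.

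To see whether a promoter peak was common among related genes, 59 other cell cycle genes were examined in 6 lists. Of the 59, 45 had a promoter peak, where 39.9% of all protein-coding genes had one. By the 30-kb rule 53 had a peak, where 62.8% of all protein-coding genes had one. The only promoter peaks of *Ccnb2*, *Cdk2* and *Pkmyt1* had q-values above 0.05 (−log10 q-values of 0.231, 1.28 and 1.21). At a −log10 q-value of at least 5, 34 of the 59 kept a promoter peak, and the share of all protein-coding genes at that level was not computed. With all peaks kept, 15 of 17 other CDKs and their cyclins had a promoter peak. Among genes of the Rb and E2F family, which act downstream of the D-type cyclins, it was 11 of 13. Among the CDK inhibitors, which bind and block CDKs, it was 5 of 7, among the phosphatases and kinases that switch CDKs on and off 4 of 5, among other cyclins 5 of 8 and among mitotic genes 5 of 9.

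The strongest promoter peak among these genes was at *E2f2*, with 18.95-fold enrichment and 80 reads, and its summit was 2750 bp from the start. That was above each promoter peak of the 10 cyclin and CDK genes, though below the 23.1-fold *Cdk6* peak in intron 5. *Tfdp2* and *Tfdp1*, the partners of E2F proteins, followed in that list with 9.63- and 8.21-fold. *Wee1*, the kinase that holds Cdk1 inactive, had 12.6-fold enrichment and 47 reads, and *Cdc25c* and *Cdc25a*, the phosphatases that release CDKs, had 5.80- and 5.60-fold. Of the inhibitors, *Cdkn2c*, which blocks Cdk4 and Cdk6, had 8.22-fold, *Cdkn1b* 6.06-fold and *Cdkn2d* 5.55-fold enrichment. Among the other CDKs and their cyclins, the highest were *Cdk12*, *Ccnt2* and *Ccnl1*, which act in transcription and RNA processing rather than in the cycle, at 9.21-, 9.04- and 8.06-fold. The *Ccnt2* peak was nearest to the start of 2900009J06Rik, at 258 bp. In the mitotic list, *Cdc20*, an activator of the anaphase-promoting complex, had 7.90-fold, *Aurka* 7.51-fold and *Fzr1* 6.39-fold enrichment, and the *Aurka* peak was nearer to the start of *Cstf1*. Among the other cyclins the highest were *Ccny* (6.03-fold), *Ccng2* (5.37-fold) and *Ccnf* (4.97-fold), the last of which encodes a subunit of a ubiquitin ligase.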

How the data were processed

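ChIP-Seq of Myb was analyzed in WT Lin- bone marrow cells (1 library), with 1 IgG library as control. Per the labels, the authors used cutadapt 1.15, BWA 0.7.13 (mm10), Picard and MACS2 2.1.1.20160309, and per the study's methods kept peaks shared by pseudo-replicates of the library. The deposited fold enrichment is a ratio of Myb signal to local IgG background, and its p- and q-values are given by the authors on the −log10 scale. The score deposited beside them repeats the −log10 p-value and was left out. Summits were assigned to GENCODE vM21. Reads at a summit were recovered from fold enrichment and p-value with a pileup scale of 0.769. A whole read number matched the −log10 p-value in 100% of rows. The margin was 0.002, and proportionally wider for large −log10 p-values. In 1.14% of rows more than 1 read number matched, and the closest was taken. The procedure was tested on simulated data. Median depth was 18 reads per summit, and total library depth is not given in the sources used here. Per the study's methods, duplicate reads were removed with Picard. With 1 library, the intervals cover counting error only.

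Groups came from the sample titles. Named were each of the 10 genes with its strongest and promoter peaks, the gene of a nearer start site, and the 3 genes with the highest promoter fold enrichment in each list of other cell cycle genes. Sequences were the summit windows of the strongest peaks with a Myb motif, the promoter windows of *Ccna2*, *Ccnb1* and *Cdk1*, and, added later, other motif windows outside UTRs. Members and lists were chosen with earlier results of these data known. Promoter sequences came from RefSeq (GRCm38), where 6 of the 10 genes were matched. Python 3.11.15, pandas 2.3.3, scipy 1.17.1 and pysam 0.24.0 were used. Alternatives covered the window, the q-value, the assignment of peaks, the grouping of the E-type cyclins and the form of the motif.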

Additional observations from a re-analysis of the deposited data

How the results depend on the processing

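Of 71 recomputed values, 54 were within 1.5 times the main count or within the interval of the main median, and 17 were not. Some of the 54 could not differ from the main value, so their number overstates agreement. The count of genes with a promoter peak does not depend on the window around the gene body. Leaving out the E-type cyclins does not touch the G1 members. At a −log10 q-value of at least 5, there were 40 peaks at the 10 genes. Of these, 32 were at G1 members (median 6.40-fold) and 8 at S and G2/M members (median 5.50-fold). At that level 8 of the genes kept a promoter peak, *Ccnb1* being the exception. The share of all protein-coding genes that did so was not computed. Peaks at S and G2/M members numbered 38 with a window of 100 kb, 13 when only peaks nearest to the gene's own start were kept, and 10 when the E-type cyclins were moved to G1 or left out. In the alternatives chosen after seeing the data, G1 members had 26 peaks without *Cdk6* and 8 without *Cdk6* and *Ccnd3* (median 4.33-fold), with 10 and 0 outside promoters, respectively. Peaks with a Myb motif numbered 21 within 100 bp of the summit, 13 with the looser words CAACNG or TAACNG, and 51 anywhere in the peak. A wider window or a looser word finds more matches at any peak. The share over all peaks was not computed for the 100-bp window or the looser words, so these counts show no excess at these genes. In each alternative that kept both groups as defined, G1 members had more peaks, whereas with only the nearest peaks the medians were 5.09 and 5.12, so the order of the medians turned. With protein-coding starts alone, 40 G1 peaks were outside promoters. No paired analysis was possible because there was 1 library per group. With 1 library, variation between mice was not measured, and with a median of 17 reads per summit at these genes most single peaks had wide intervals.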
